A study of Mus musculus with 9 samples.

Results

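The genes described here are the 2 corticosteroid receptors and 8 genes that respond to glucocorticoids, 10 of the 47643 genes in the count matrix. They were taken by symbol, as a list drawn up with earlier results of these data known: *Nr3c1* and *Nr3c2*, the glucocorticoid and mineralocorticoid receptors, and *Fkbp5*, *Sgk1*, *Tsc22d3*, *Zbtb16*, *Pdk4*, *Ddit4*, *Mt1* and *Mt2*. Poly-A RNA of the hippocampus was sequenced in 9 mice aged 6 weeks. There were 3 MRL/mpj mice, which carry no lpr allele and served as wild-type controls, 3 untreated MRL/lpr mice and 3 MRL/lpr mice treated with mesenchymal stem cells (MRL/lpr+MSC). The lpr allele is an insertion in *Fas* that causes a lupus-like disease, and it is carried by all cells of both MRL/lpr groups. GEO's labels name C57BL/6 as the strain of every library, whereas the study's methods name MRL strains. The dose, route and time of the stem cells are not given in the sources used here, and neither is the time of day of sampling.

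Glucocorticoids (corticosterone in mice) enter cells and bind 2 nuclear receptors. The mineralocorticoid receptor binds corticosterone with high affinity and is abundant in hippocampal neurons, and the glucocorticoid receptor, with lower affinity, is engaged as the hormone rises with stress or with the daily rhythm. Without hormone, the receptors are held by HSP90 and its cochaperones. With hormone, they bind DNA at glucocorticoid response elements, which are inverted repeats of AGAACA, or act through other factors. FKBP5 is a cochaperone that lowers the receptor's affinity for hormone, and its gene is induced by the receptor, which forms a short feedback loop.

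Promoter windows from RefSeq (GRCm38.p6), the 250 bases before an annotated start, were searched for 8 of the 10 genes. *Zbtb16* had no window, and *Nr3c1* was left out of the search. The 8 genes gave 15 windows, since some genes have several starts. Both strands were searched. A loose palindromic form of the response element, GNACA and TGTNC with any 3 bases between them, was in 2 of these windows, 1 of *Sgk1* and 1 of *Mt1*, and in 0.387% of all 32851 windows of the same length. The core of the metal response element, the site of the zinc-sensing factor MTF1, was searched as TGCACNC, which is in 10.4% of all windows, and as TGCGCNC, in 12.5%. *Mt2* held 3 such matches, and *Mt1*, *Nr3c2* and *Ddit4* held 1 each. The 3 windows are shown because they hold the matches to the palindrome or several matches to the metal core, with matches to any motif searched in capitals. The window of *Sgk1* lies inside the gene at chr10:21993640-21993889 (plus strand), before an internal start. Its capitals from base -189 to -175 are a full inverted repeat of AGAACA, and the run near its 5′ end joins an E-box, CACGTG (6.02% of all windows), to an overlapping TGTTCT, the other strand of AGAACA. Those of *Mt1* (chr8:94178839-94179081) and *Mt2* (chr8:94172368-94172617) are on the plus strand, and the bases of the *Mt1* window that the annotation puts in its own exon are left out. All 250 bases of the *Mt2* window lie in an exon of an antisense gene, *Gm45774*. Searched windows of *Pdk4*, *Nr3c2*, *Ddit4* and *Tsc22d3*, not shown, also hold 31 to 137 bases of their own gene's exons.
Sgk1: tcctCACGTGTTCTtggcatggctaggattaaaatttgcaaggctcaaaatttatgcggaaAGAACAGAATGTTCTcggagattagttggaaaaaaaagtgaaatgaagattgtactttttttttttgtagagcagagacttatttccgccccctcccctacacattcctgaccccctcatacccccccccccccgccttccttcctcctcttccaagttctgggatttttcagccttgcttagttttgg
Mt1: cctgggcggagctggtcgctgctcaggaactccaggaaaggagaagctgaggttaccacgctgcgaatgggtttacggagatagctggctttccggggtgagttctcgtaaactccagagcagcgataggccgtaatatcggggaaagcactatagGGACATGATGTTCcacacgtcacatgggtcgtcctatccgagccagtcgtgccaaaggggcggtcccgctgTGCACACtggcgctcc
Mt2: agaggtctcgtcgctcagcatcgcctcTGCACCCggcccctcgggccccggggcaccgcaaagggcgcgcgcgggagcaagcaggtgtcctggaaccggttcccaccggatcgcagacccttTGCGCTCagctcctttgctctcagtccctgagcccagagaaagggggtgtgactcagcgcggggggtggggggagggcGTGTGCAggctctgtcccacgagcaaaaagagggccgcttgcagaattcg
The single motif AGAACA was in 16.1% of all windows and in 4 of the 15 windows here, 3 of *Sgk1* and 1 of *Tsc22d3*. In the window of *Mt1*, the palindrome spans bases -94 to -82 before the start. A match is a description of letters and not of binding, and response elements of these genes can lie far outside such windows.

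The libraries held 19475804 to 26912031 counts, so that 3 counts equal 0.1115 to 0.154 CPM, the count scaled to a common library total. All 10 genes passed the filter on low counts in every comparison. CPM values below are scaled by TMM, which equalizes libraries on the bulk of their genes. A gene is said to have risen or fallen when limma voom gave an adjusted p under 0.05 and a change of at least 1.5-fold. Nothing in the labels says whether replicates differ in litter, cage or day, and p-values measure the spread between these libraries. In an expression table released with the study, columns headed MRL/lpr carried the same values, up to 1 constant per library, as the libraries that GEO labels MRL/lpr+MSC. All compared genes (100%) matched in this way, but no more than 1.01% did so for any library that GEO labels MRL/lpr. Groups follow GEO's labels throughout, and because of this conflict both MRL/lpr groups are given beside MRL/mpj. *Fas* did not separate the groups, with 1.63 to 2.0 CPM in MRL/mpj, 1.34 to 2.27 in MRL/lpr and 0.985 to 1.81 in MRL/lpr+MSC, so its gene-level count does not check the labels. Marker genes of other cell types varied between libraries. The summed CPM of 10 choroid plexus genes was 422 to 1285 in MRL/mpj and reached 13547 in MRL/lpr replicate 2 and 6948 in MRL/lpr+MSC replicate 2. The summed CPM of 9 CA1 pyramidal neuron markers was 1086 to 1283 in MRL/mpj, 507 to 758 in MRL/lpr and 722 to 973 in MRL/lpr+MSC.

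Levels were compared between genes on the authors' FPKM, which divide by gene length. In MRL/mpj hippocampus the metallothioneins were the most abundant, *Mt1* at 623.7 ± 50.2 FPKM and *Mt2* at 376.7 ± 41.0 FPKM (mean ± SD, n = 3), followed by *Ddit4* at 76.5 ± 13.4 FPKM. *Nr3c2* (42.2 ± 0.718 FPKM) and *Sgk1* (38.5 ± 10.2 FPKM) did not differ beyond their SD, nor did *Sgk1* and *Tsc22d3* (27.9 ± 5.12 FPKM). *Zbtb16* (20.4 ± 1.75 FPKM), *Fkbp5* (15.9 ± 1.17 FPKM) and *Nr3c1* (12.4 ± 1.07 FPKM) came next, and *Pdk4* was the lowest at 6.82 ± 0.812 FPKM. In MRL/lpr, *Nr3c1* (14.6 ± 1.86 FPKM) stood above *Tsc22d3* (11.1 ± 2.72 FPKM), *Fkbp5* (10.6 ± 1.91 FPKM) and *Zbtb16* (9.57 ± 1.42 FPKM), all of which were above it in MRL/mpj, although it overlapped *Tsc22d3* within their SD. In MRL/lpr+MSC the order was the same down to *Nr3c1* (15.9 ± 1.57 FPKM), above *Tsc22d3* (11.8 ± 1.92 FPKM), *Zbtb16* (11.3 ± 2.29 FPKM) and *Fkbp5* (9.84 ± 1.33 FPKM).

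In the hippocampus of untreated MRL/lpr mice, 2 of the 10 genes fell relative to MRL/mpj, *Tsc22d3* and *Zbtb16*, and 0 rose. Among all 16697 genes tested, 2.38% fell and 3.41% rose. The estimate was below 0 for 9 of the 10 genes and above 0 for *Nr3c1*, with a median log2 fold change of -0.51 against 0.02 over all genes tested. For 8 of the 10, every MRL/lpr library was below every MRL/mpj library, and for 0 every library was above, while 18.6% and 19.4% of all genes were separated in these directions. In MRL/lpr+MSC, 4 of the 10 fell relative to MRL/mpj, *Fkbp5*, *Tsc22d3*, *Zbtb16* and *Mt2*, and 0 rose, against 1.5% and 1.93% of the 16196 genes tested. Their median log2 fold change was -0.59, against 0.01 over all genes, and 8 were separated downward and 1, *Nr3c1*, upward, against 14.4% and 15.2% of all genes. Both comparisons use the same MRL/mpj libraries, so they are not independent of each other. When limma tested against a 1.5-fold change rather than no change, 0 of the 10 passed in either comparison.

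**Figure D1:**
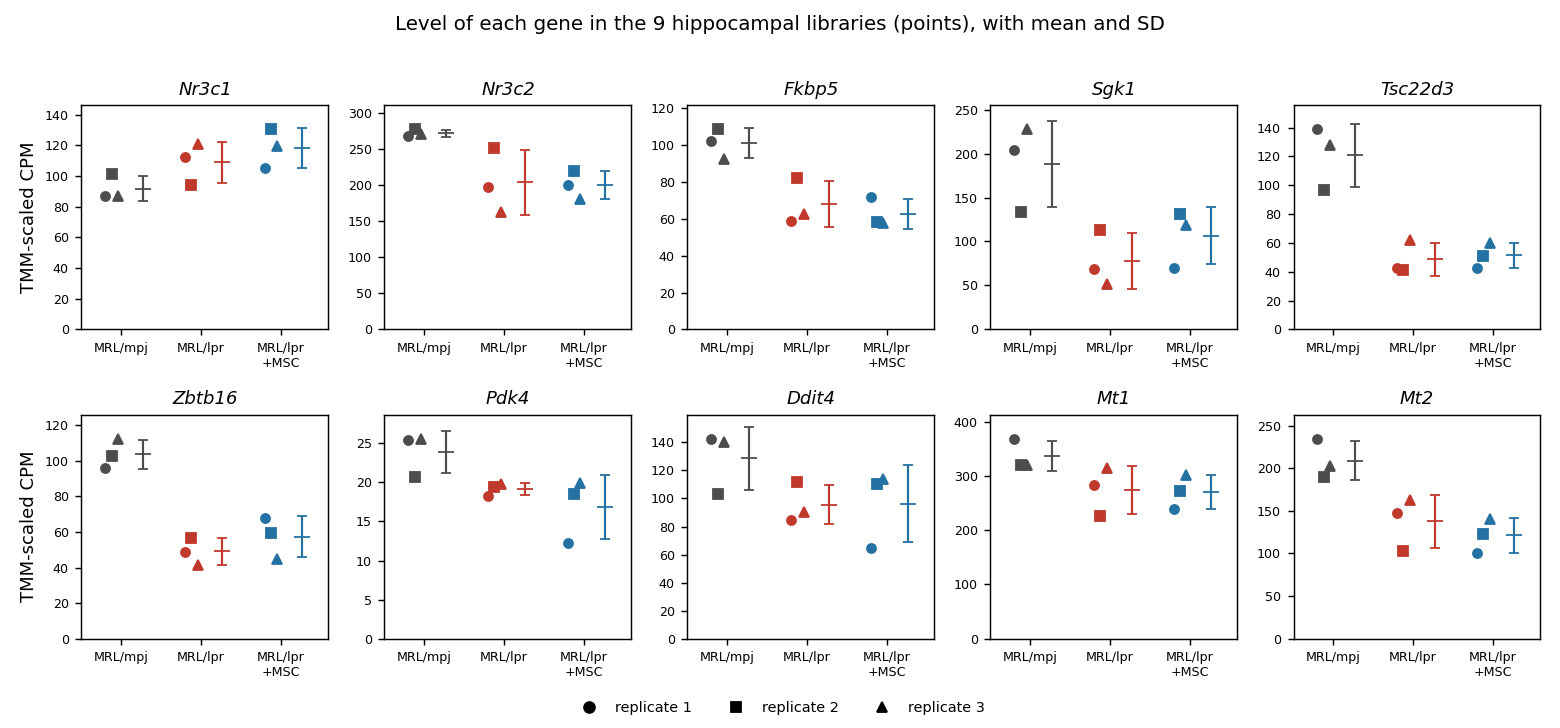
Each panel shows 1 gene, with TMM-scaled CPM on the vertical axis from 0 and the 3 groups on the horizontal axis. Points are libraries, shaped by replicate number, and the bars give the mean ± SD (n = 3). *Tsc22d3* sits between 96.4 and 138.7 CPM in MRL/mpj and between 41.0 and 62.0 CPM in all MRL/lpr and MRL/lpr+MSC libraries.

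*Nr3c1* (ENSMUSG00000024431, chr18:39410545-39519421, minus strand) encodes the glucocorticoid receptor. It stood at 86.9, 101.3 and 86.9 CPM in MRL/mpj, at 112.1, 94.3 and 120.6 CPM in MRL/lpr and at 104.9, 130.3 and 119.5 CPM in MRL/lpr+MSC. MRL/lpr replicate 2 lay within the MRL/mpj range, and all MRL/lpr+MSC libraries lay above it. The log2 fold change against MRL/mpj was 0.25 ± 0.11 (SE) in MRL/lpr (adjusted p = 0.185) and 0.37 ± 0.10 in MRL/lpr+MSC (adjusted p = 0.0935), and neither passed the test. *Nr3c2* (ENSMUSG00000031618, chr8:76899442-77245012, plus strand) encodes the mineralocorticoid receptor. Its levels were 268.3, 277.8 and 271.5 CPM in MRL/mpj, 197.5, 252.7 and 162.8 CPM in MRL/lpr and 201.3, 220.0 and 180.9 CPM in MRL/lpr+MSC. All 6 libraries with the lpr allele were below the narrow MRL/mpj range. The log2 fold change was -0.43 ± 0.15 in MRL/lpr (adjusted p = 0.113) and -0.44 ± 0.085 in MRL/lpr+MSC (adjusted p = 0.0349), the latter under the p threshold but at 1.36-fold short of the fold threshold. Without MRL/lpr replicate 2, the library richest in choroid plexus genes, the log2 fold change in MRL/lpr was -0.60 (adjusted p = 0.0106), which passed both thresholds. Without MRL/lpr replicate 3 it was -0.285 (adjusted p = 0.134), and without each of the other 4 libraries the adjusted p was 0.233 to 0.252. The annotation has 3 further genes that overlap *Nr3c2*, and whether counting used strand is not stated.

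The receptors' ratio within a library does not depend on scaling between libraries. This ratio, and those of *Fkbp4* to *Fkbp5* and of *Mt2* to *Mt1* below, were chosen after the values had been seen. On FPKM, *Nr3c2* was 3.54, 3.14 and 3.58 times *Nr3c1* in MRL/mpj, 2.02, 3.07 and 1.55 times in MRL/lpr and 2.2, 1.94 and 1.74 times in MRL/lpr+MSC. All 6 libraries with the lpr allele were below all 3 without it, although MRL/lpr replicate 2 came close to MRL/mpj replicate 2. Because of that choice the ratios are given as a description, with no test. The CA1 marker levels given above moved with the same groups, their part in the ratio was not tested, and in bulk tissue fewer cells of a type cannot be told apart from less RNA per cell.

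*Fkbp5* (ENSMUSG00000024222, chr17:28399094-28517527, minus strand) stood at 102.1, 108.6 and 92.6 CPM in MRL/mpj, at 59.1, 82.2 and 62.6 CPM in MRL/lpr and at 71.8, 58.4 and 57.7 CPM in MRL/lpr+MSC. All libraries with the lpr allele were below all MRL/mpj libraries. It fell in MRL/lpr+MSC, by 0.69 on the log2 scale (SE 0.11, adjusted p = 0.0164, 1.61-fold). In MRL/lpr the log2 fold change was -0.58 ± 0.13 with an adjusted p of 0.0436, and the change of 1.499-fold stood just short of the fold threshold. Median-of-ratios size factors put it past the threshold, at a log2 fold change of -0.59 (adjusted p = 0.0384), and without MRL/lpr replicate 2 it was -0.73 (adjusted p = 0.00568). Without each of the other 5 libraries it missed the p threshold too, with adjusted p from 0.066 to 0.139 and log2 fold changes from -0.64 to -0.49. The call in MRL/lpr+MSC was lost when any MRL/mpj library or MRL/lpr+MSC replicate 2 or 3 was left out, with adjusted p from 0.0504 to 0.0903 and log2 fold changes from -0.76 to -0.65. The annotation has 4 further genes that overlap *Fkbp5*, of which *AC154912.1* and *Gm22146* lie on the opposite strand.

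FKBP4 is the cochaperone that FKBP5 displaces or is displaced by on the receptor complex. *Fkbp4* was at 94.0, 110.8 and 111.5 CPM in MRL/mpj, at 142.4, 143.7 and 172.5 CPM in MRL/lpr and at 132.3, 150.3 and 168.2 CPM in MRL/lpr+MSC, above all MRL/mpj libraries in both groups. Its log2 fold changes were 0.54 ± 0.11 (adjusted p = 0.03) and 0.51 ± 0.11 (adjusted p = 0.0483), under the p threshold and below 1.5-fold. On FPKM the ratio of *Fkbp4* to *Fkbp5* was 2.1, 2.32 and 2.74 in MRL/mpj, 5.49, 3.98 and 6.28 in MRL/lpr and 4.2, 5.85 and 6.64 in MRL/lpr+MSC. The means were 2.39 ± 0.33, 5.25 ± 1.17 and 5.57 ± 1.25 (SD, n = 3), and no library with the lpr allele reached down to the MRL/mpj range. Of the 12 chaperones and cochaperones listed, 0 rose and 0 fell in either comparison with MRL/mpj, and the medians were 0.01 and 0.09. The HSP90 genes themselves, the most abundant of the list, had log2 fold changes of -0.21 (*Hsp90ab1*) and -0.07 (*Hsp90aa1*) in MRL/lpr, with adjusted p of 0.132 and 0.65.

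**Figure D2:**
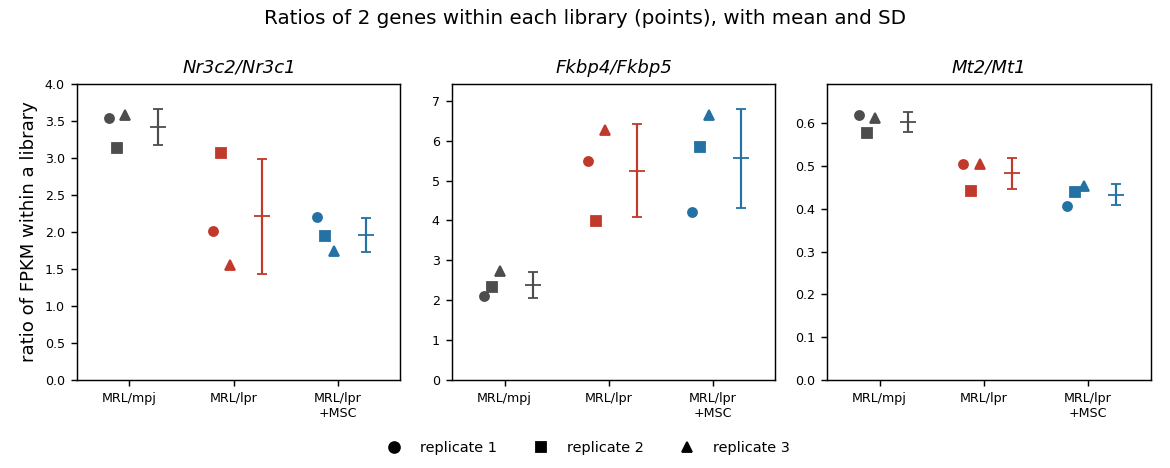
The vertical axis gives the ratio of the FPKM of 2 genes within a library, from 0, and the horizontal axis the 3 groups. Points are libraries, shaped by replicate number, and bars give the mean ± SD (n = 3). All 6 libraries with the lpr allele lie below the MRL/mpj libraries for *Nr3c2*/*Nr3c1* and *Mt2*/*Mt1* and above them for *Fkbp4*/*Fkbp5*.

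*Tsc22d3* (ENSMUSG00000031431, chrX:140539528-140600659, minus strand) encodes GILZ, a leucine zipper protein that carries part of the anti-inflammatory action of glucocorticoids. Its levels were 138.7, 96.4 and 127.6 CPM in MRL/mpj, 42.8, 41.0 and 62.0 CPM in MRL/lpr and 42.8, 51.2 and 59.8 CPM in MRL/lpr+MSC. The lowest MRL/mpj library was well above the highest library with the lpr allele. It fell by 1.32 on the log2 scale in MRL/lpr (SE 0.20, adjusted p = 0.0173, 2.5-fold) and by 1.23 in MRL/lpr+MSC (SE 0.17, adjusted p = 0.0129, 2.34-fold). Leaving out a library lost the call in MRL/lpr for MRL/mpj replicate 1 (adjusted p = 0.0772), MRL/mpj replicate 3 (0.0852) and MRL/lpr replicate 1 (0.0621). For MRL/lpr+MSC the adjusted p rose to 0.0613 without MRL/mpj replicate 1 and 0.0702 without replicate 3.

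*Zbtb16* (ENSMUSG00000066687, chr9:48654297-48836222, minus strand) encodes PLZF, a zinc finger repressor that is strongly induced by glucocorticoids in many cell types. Levels were 96.1, 102.7 and 112.5 CPM in MRL/mpj, 49.0, 56.7 and 41.7 CPM in MRL/lpr and 67.7, 59.6 and 45.0 CPM in MRL/lpr+MSC. All libraries with the lpr allele were below all MRL/mpj libraries, while the 2 MRL/lpr groups overlapped. It fell by 1.08 in MRL/lpr (SE 0.12, adjusted p = 0.00644, 2.12-fold), and this call held without each library in turn, with adjusted p from 0.00391 to 0.0397. In MRL/lpr+MSC it fell by 0.87 (SE 0.15, adjusted p = 0.0258, 1.83-fold), a call lost without any MRL/mpj library or MRL/lpr+MSC replicate 2, where the adjusted p was 0.0686 to 0.112.

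*Sgk1* (ENSMUSG00000019970, chr10:21882184-21999903, plus strand), whose internal window with the full inverted repeat is shown above, encodes a kinase that acts on ion channels through NEDD4L. It varied widely between replicates, with 203.9, 133.2 and 227.4 CPM in MRL/mpj, 68.5, 113.5 and 52.1 CPM in MRL/lpr and 69.7, 131.8 and 118.7 CPM in MRL/lpr+MSC. In each group replicate 2 was an extreme, the lowest of MRL/mpj and the highest of both others, and MRL/lpr+MSC replicate 2 was only just under the lowest MRL/mpj library. The log2 fold change was -1.31 ± 0.32 in MRL/lpr, a 2.48-fold lower level that stood just outside the threshold (adjusted p = 0.0532), and -0.83 ± 0.29 in MRL/lpr+MSC (adjusted p = 0.155). With limma-trend in place of voom the adjusted p in MRL/lpr was 0.044, and with no filter on low counts it was 0.103. Without MRL/lpr replicate 2 it was 0.0129 with a log2 fold change of -1.61, and without each of the other 5 libraries it was 0.0805 to 0.174, with log2 fold changes from -1.54 to -1.06. Without MRL/lpr+MSC replicate 1 the log2 fold change in MRL/lpr+MSC was -0.55 (adjusted p = 0.215).

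*Pdk4* (ENSMUSG00000019577, chr6:5483351-5496309, minus strand), a kinase that turns off pyruvate dehydrogenase in fasting, stood at 25.4, 20.7 and 25.6 CPM in MRL/mpj, 18.2, 19.4 and 19.8 CPM in MRL/lpr and 12.2, 18.5 and 19.9 CPM in MRL/lpr+MSC. *Ddit4* (ENSMUSG00000020108, chr10:59949669-59951834, minus strand), an inhibitor of mTORC1 signalling, stood at 142.6, 103.0 and 140.0 CPM, at 84.9, 111.5 and 90.5 CPM and at 64.5, 110.1 and 113.8 CPM in the same order. MRL/mpj replicate 2 was the lowest of its group for both genes, and for *Ddit4* it fell among the libraries with the lpr allele. The log2 fold changes of *Pdk4* were -0.30 ± 0.11 and -0.49 ± 0.19 (adjusted p = 0.12 and 0.18), and those of *Ddit4* were -0.42 ± 0.16 and -0.45 ± 0.24 (adjusted p = 0.134 and 0.328), in MRL/lpr and MRL/lpr+MSC. Neither gene passed the test. Without MRL/lpr+MSC replicate 1, the lowest library for both, the log2 fold change in MRL/lpr+MSC was -0.29 for *Pdk4* (adjusted p = 0.152) and -0.18 for *Ddit4* (adjusted p = 0.46).

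The metallothioneins bind zinc and copper and are induced by both metals and glucocorticoids. *Mt1* (ENSMUSG00000031765, chr8:94179082-94180327, plus strand) stood at 368.4, 320.0 and 319.9 CPM in MRL/mpj, 283.2, 226.8 and 314.2 CPM in MRL/lpr and 238.4, 272.4 and 301.0 CPM in MRL/lpr+MSC, and its log2 fold change was -0.30 ± 0.13 (adjusted p = 0.176) and -0.31 ± 0.11 (0.145). *Mt2* (ENSMUSG00000031762, chr8:94172664-94173568, plus strand), its neighbour, stood at 234.6, 190.2 and 202.1 CPM, at 147.1, 103.3 and 162.9 CPM and at 99.99, 123.2 and 140.9 CPM. Neither gene's MRL/lpr groups overlapped with MRL/mpj, by a small margin for *Mt1* and a wider one for *Mt2*. *Mt2* fell in MRL/lpr+MSC by 0.79 (SE 0.14, adjusted p = 0.029, 1.73-fold), and in MRL/lpr its log2 fold change was -0.62 ± 0.18 (adjusted p = 0.0754). Without any 1 of the MRL/mpj libraries or MRL/lpr+MSC replicate 2 the adjusted p in MRL/lpr+MSC was 0.0686 to 0.116, and in 1 fit of all 9 libraries it was 0.0574. Without MRL/lpr replicate 3 the value in MRL/lpr passed both thresholds (adjusted p = 0.04). For *Mt1* the log2 fold change in MRL/lpr was -0.167 without MRL/lpr replicate 2 (adjusted p = 0.236).

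On FPKM, *Mt2* was 0.619, 0.577 and 0.613 times *Mt1* in MRL/mpj, 0.505, 0.442 and 0.504 times in MRL/lpr and 0.407, 0.439 and 0.454 times in MRL/lpr+MSC. The ratio was tight within each group, and it was lower in all 6 libraries with the lpr allele. The transcripts of both genes share at most 20 identical bases in a row, and an antisense gene, *Gm45774*, overlaps *Mt2*. *Mt3*, the metallothionein of neurons and astrocytes, stood at 304.8, 310.6 and 312.3 CPM in MRL/mpj, at 468.3, 431.8 and 478.6 CPM in MRL/lpr and at 376.5, 421.7 and 441.0 CPM in MRL/lpr+MSC. It was higher in all libraries with the lpr allele, with log2 fold changes of 0.57 ± 0.066 (adjusted p = 0.00691) and 0.42 ± 0.080 (adjusted p = 0.0333), which stayed under 1.5-fold. Astrocytes are a main source of metallothioneins in the brain. The summed CPM of 10 astrocyte markers was 5276 to 5673 in MRL/mpj, 4601 to 5803 in MRL/lpr and 5572 to 5912 in MRL/lpr+MSC, and 1 of the 10, *Sox9*, rose in both comparisons.

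**Figure D3:**
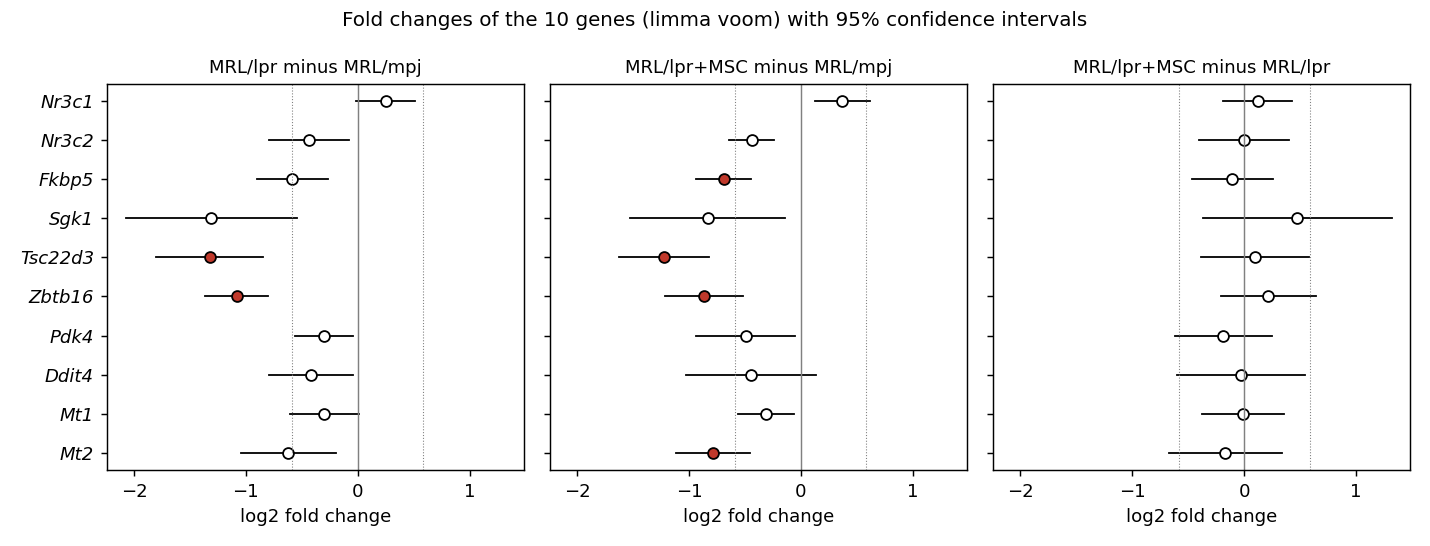
Each panel is 1 comparison, with the log2 fold change on the horizontal axis and the 10 genes on the vertical axis. Points are limma voom estimates, lines are 95% confidence intervals, filled points passed both thresholds, and dotted lines mark 1.5-fold. 9 of the 10 estimates lie below 0 in the first and second panels, and all 10 intervals in the third panel cross 0.

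Untreated and treated MRL/lpr mice were compared to ask whether stem cells altered these genes. Relative to MRL/lpr, 0 of the 10 genes rose or fell in MRL/lpr+MSC by limma voom or limma-trend, 0 of them at an unadjusted p under 0.05, and 0 were separated between the groups. This was so for the whole transcriptome: 0% of the 16758 genes tested were called in each direction by either tool and 647 had an unadjusted p under 0.05, while 4.27% were separated upward and 5.71% downward. The intervals show what the data allow. The 95% confidence interval of the log2 fold change was -0.38 to 0.58 for *Tsc22d3*, -0.21 to 0.65 for *Zbtb16*, -0.47 to 0.25 for *Fkbp5* and -0.67 to 0.33 for *Mt2*. It was -0.36 to 1.32 for *Sgk1*, whose estimate of 0.48 was the largest of the 10. For the receptors it was -0.19 to 0.43 (*Nr3c1*) and -0.40 to 0.40 (*Nr3c2*), and it was -0.62 to 0.24 for *Pdk4*, -0.60 to 0.55 for *Ddit4* and -0.38 to 0.35 for *Mt1*. The intervals of *Sgk1*, *Zbtb16*, *Mt2*, *Pdk4* and *Ddit4* include changes of 1.5-fold. Without the 2 libraries highest in choroid plexus genes, an alternative chosen after the data were seen, 0 of the 10 passed.

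Among 24 other genes known to be induced by glucocorticoids, 5 fell and 0 rose in MRL/lpr, and 4 fell and 0 rose in MRL/lpr+MSC. Of all genes tested, 2.38% fell and 3.41% rose in MRL/lpr, and 1.5% fell and 1.93% rose in MRL/lpr+MSC. The median log2 fold changes of the 24 genes were -0.42 and -0.53, and 2 and 5 of their estimates were above 0. In each comparison 13 of the 24 were separated downward, against 18.6% and 14.4% of all genes. Upward it was 0 and 1, against 19.4% and 15.2%. *Hif3a*, an oxygen-response factor and a sensitive glucocorticoid target, was at 10.6, 9.58 and 11.9 CPM in MRL/mpj, at 2.83, 1.85 and 4.48 CPM in MRL/lpr and at 2.33, 2.37 and 1.77 CPM in MRL/lpr+MSC, and fell by 1.87 (SE 0.28, adjusted p = 0.0146) and 2.30 (SE 0.19, adjusted p = 0.00179). *Klf9*, a Krüppel-like factor that restrains neuronal plasticity genes, was at 303.1, 288.4 and 295.4 CPM, at 170.7, 204.8 and 147.8 CPM and at 171.5, 185.7 and 159.7 CPM, and fell by 0.77 (adjusted p = 0.0161) and 0.78 (adjusted p = 0.00364). Both were far outside the MRL/mpj range in all 6 libraries. *Errfi1*, a feedback inhibitor of the EGF receptor, fell by 0.87 and 0.82 (adjusted p = 0.0307 and 0.0479), and the kinase gene *Map3k6* by 1.90 and 1.57 (adjusted p = 0.026 and 0.0399), from 5.08 ± 1.54 CPM. *Mertk*, a phagocytic receptor, fell in MRL/lpr by 0.60 (adjusted p = 0.0464). In MRL/lpr+MSC its log2 fold change was -0.58, at 1.49-fold just under the fold threshold (adjusted p = 0.0283).

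**Figure D4:**
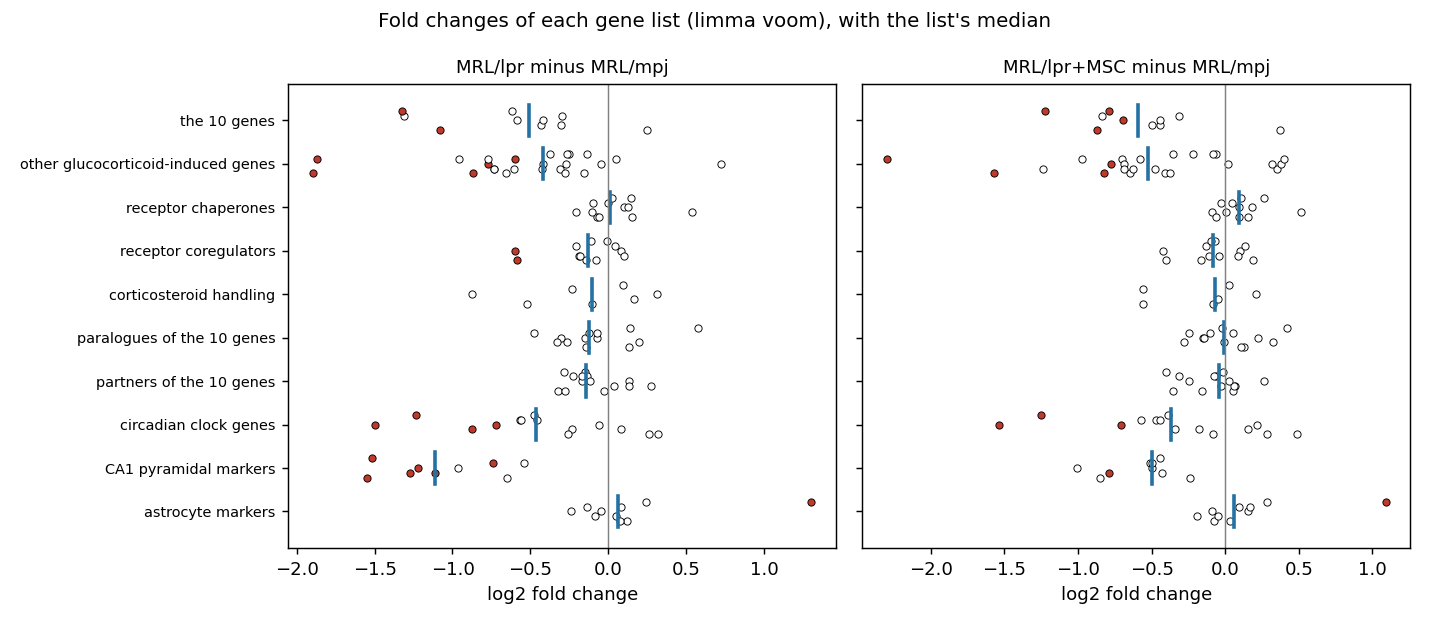
Each row is a gene list and each point a gene, with its log2 fold change against MRL/mpj on the horizontal axis. Filled points passed both thresholds, and blue bars are the medians of the lists. The medians of the 10 genes (-0.51 and -0.59) and of the other glucocorticoid-induced genes (-0.42 and -0.53) lie left of 0, and those of the chaperones (0.01 and 0.09) lie close to it.

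Of 12 receptor coregulators, 2 fell in MRL/lpr and 0 in MRL/lpr+MSC, and 0 rose. These were *Ncoa1*, the steroid receptor coactivator SRC-1, from 242.4 ± 0.689 to 161.7 ± 20.6 CPM (adjusted p = 0.0184), and *Nrip1*, a corepressor, from 69.8 ± 5.99 to 46.0 ± 3.00 CPM (adjusted p = 0.0146). Treated mice had them at 183.5 and 52.0 CPM (adjusted p = 0.0324 and 0.0644), between the other groups. Of 8 genes that make, inactivate or export corticosteroids, 7 and 6 were expressed enough to test, and 0 rose or fell. *Hsd11b1*, which regenerates active glucocorticoid inside cells, was at 39.9, 42.7 and 51.2 CPM in MRL/mpj, at 34.1, 31.9 and 26.4 CPM in MRL/lpr and at 26.2, 36.5 and 27.7 CPM in MRL/lpr+MSC. All libraries with the lpr allele were below MRL/mpj, with log2 fold changes of -0.52 and -0.56 that did not pass (adjusted p = 0.054 and 0.0798). *Abcb1a*, an efflux pump that limits the entry of some corticosteroids into the brain, differed by -0.11 (adjusted p = 0.399) and -0.09 (0.715) on the log2 scale.

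Of the peptides and receptors of the stress axis, 8 of 12 could be tested in MRL/lpr, where *Crhr2* rose and *Crhbp* fell. *Crhr2*, a receptor for urocortins, went from 1.61 ± 0.805 to 9.47 ± 2.76 CPM (adjusted p = 0.0239), and *Crhbp*, which sequesters CRH, from 19.1 ± 3.62 to 6.75 ± 1.35 CPM (adjusted p = 0.0135). Among treated mice 0 of the 7 tested rose or fell, and *Crhr2* ranged from 1.25 to 11.6 CPM. The 10 thalamic neuron markers summed to 196 to 246 CPM in MRL/mpj, 272 to 787 CPM in MRL/lpr and 165 to 705 CPM in MRL/lpr+MSC, lowest in the same MRL/lpr+MSC library that was lowest in *Crhr2*, and their part in these values was not tested. Paralogues of the 10 genes (13 of 14 tested) and their partners in signalling (14 of 14) had 0 called in either comparison. *Tsc22d1*, the most abundant paralogue, differed by -0.33 (adjusted p = 0.0316) and -0.28 (0.07) on the log2 scale, *Ndrg2*, a substrate of SGK1, had 0.13 (adjusted p = 0.566) and 0.26 (0.0791), and *Gsk3b*, a kinase downstream of AKT and SGK1, had -0.22 (adjusted p = 0.131) and -0.06 (0.701).

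Glucocorticoid secretion follows the day, and clock genes moved with the same groups. Of 14 clock genes, 4 fell in MRL/lpr and 3 in MRL/lpr+MSC, and 0 rose, with medians of -0.47 and -0.37. The list did not move in 1 direction, since 3 estimates in MRL/lpr and 4 in MRL/lpr+MSC were above 0. In MRL/lpr 9 were separated downward and 3 upward, against 18.6% and 19.4% of all genes. In MRL/lpr+MSC these counts were 8 and 2, against 14.4% and 15.2%. *Dbp*, an output factor of the clock, went from 46.0 ± 1.34 CPM in MRL/mpj to 19.5 ± 0.473 in MRL/lpr and 19.2 ± 1.97 in MRL/lpr+MSC (adjusted p = 0.000642 and 0.00107). *Ciart*, *Nr1d1* and *Hlf* fell in MRL/lpr by 1.5, 0.72 and 0.87. *Per1*, which is both a clock gene and a glucocorticoid target, differed by -0.65 in both groups on the log2 scale (adjusted p = 0.0627 and 0.0952). The part of the time of day in the levels of the 10 genes was not tested.

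Several marker lists also differed between the groups. Of 9 CA1 pyramidal markers, 6 fell in MRL/lpr and 1 in MRL/lpr+MSC, with *Gpr161*, *Mpped1* and *Pou3f1* falling in MRL/lpr by 1.55, 1.27 and 1.22, and *Fibcd1* falling in both, by 1.11 and 0.79 (adjusted p = 0.0037 and 0.00876). Of the 10 choroid plexus markers 0 passed the test, though *Ttr* ranged from 50.9 to 8870 CPM in MRL/lpr. The 10 oligodendrocyte markers summed to 7927 to 8598 CPM in MRL/mpj, 5201 to 10185 in MRL/lpr and 4443 to 7962 in MRL/lpr+MSC, and 0 of them passed. The 10 T and B cell markers summed to 4.95 to 5.49, 13.7 to 41.7 and 4.25 to 10.6 CPM, and 6 of the 8 tested rose in MRL/lpr and 0 of the 2 tested in MRL/lpr+MSC. Genes such as *Cd3d*, *Cd3e* and *Cd3g* averaged 0.029, 0.051 and 0 CPM in MRL/mpj, and passed the filter only through the MRL/lpr libraries. For such genes being tested already implied a higher level in MRL/lpr, so these 2 counts cannot be compared. Of 20 interferon-induced genes 19 were tested in MRL/lpr, where 8 rose, and 17 in MRL/lpr+MSC, where 4 rose, and 0 fell in either. The same limit holds for those near 0 in MRL/mpj, such as *Zbp1* at 0.11 CPM on average. Of 10 housekeeping genes 2 and 1 fell, and 0 rose. Their summed CPM was 5251 to 5469 in MRL/mpj, 4253 to 4673 in MRL/lpr and 4432 to 4932 in MRL/lpr+MSC. The part of these shifts in the levels of the 10 genes was not tested. Leaving out MRL/lpr replicate 2, the library richest in choroid plexus genes, kept the calls of *Zbtb16* and *Tsc22d3* in MRL/lpr. *Zbtb16* fell by 1.19 (adjusted p = 0.00391) and *Tsc22d3* fell by 1.22 (adjusted p = 0.017). MRL/lpr replicates 1 and 3, which stayed in that fit, were richer in thalamic neuron markers than replicate 2. These summed to 577 and 787 CPM, against 272 CPM in replicate 2, so the fit does not test the part of tissue composition.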

How the data were processed

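Hippocampal mRNA of 9 mice was sequenced with NEBNext Ultra libraries. Per the paper's methods the authors aligned reads with STAR to mm10 and counted them per gene with HTSeq, whereas the submitters' processing notes name TopHat2 and GRCm38. The deposited matrix holds whole-number counts of 47643 genes, not normalized, and the authors also deposited FPKM values, which divide counts by gene length and library size. For their comparisons the authors normalized with voom and tested with DESeq2. The counts matrix is separated by a character that kept its unit from being registered as counts, so the planned quasi-likelihood test was not run and limma voom, named in the plan for that case, took its place. Each FPKM table matched the counts of its own library. Symbols and coordinates came from GENCODE (GRCm38) and matched 47224 genes. All value columns belonged to a sample (0 did not).

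Each comparison was fitted on its own 6 libraries with limma 3.58.1 (statmod 1.5.0, R 4.3.3), with TMM (trimming 30% of log ratios and 5% of levels), robust moderation, and p-values adjusted by Benjamini-Hochberg across every gene of the fit. Genes were kept when at least 3 libraries reached the CPM that 10 counts make in the median library, and counts summed to 15 or more. On simulated counts with 200 changed genes, 198 were recovered for MRL/lpr against MRL/mpj among 16509 genes. The simulation gave every gene the same spread between libraries. It changed only genes above a minimum level, by larger folds than most of the 10 genes showed. The recovery therefore does not measure how sensitive the fit was for the real libraries. Promoters were searched and ratios computed in Python 3.11.15. Within each group, no pair of libraries agreed within sampling noise, and pairs across groups were not compared. The labels give no batch.

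The 10 genes, the other gene lists and the alternatives were chosen with earlier results of these data known. Named are the 10 genes, and of each list those called in a comparison (at most 4, the largest changes), or the 2 with the highest mean CPM where none was called. Cell type, interferon and housekeeping lists are mostly given as counts and ranges. *Fkbp4*, *Mertk*, *Per1* and *Fibcd1* were named after their values were seen. The value of 1 gene that this rule names is not reported here.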

Additional observations from a re-analysis of the deposited data

How the results depend on the processing

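The number of the 10 genes called against MRL/mpj was small enough to move with single choices. In MRL/lpr (2 called) it was 0 when limma tested against a 1.5-fold change, 4 with library quality weights, 4 with both MRL/lpr groups together, and 1 to 5 when 1 library was left out. In MRL/lpr+MSC (4 called) it was 0 against a 1.5-fold change, 2 with the replicate number as a block, and 0 to 4 when 1 library was left out: 0 without MRL/mpj replicate 1 or 3 and 1 without MRL/mpj replicate 2 or MRL/lpr+MSC replicate 2. Fewer libraries alone lower the power of these fits. Median-of-ratios size factors, no filter, a filter at 1 CPM, limma-trend and 1 fit of all 9 libraries gave 2 or 3 in MRL/lpr and 3 or 4 in MRL/lpr+MSC. The tests against 1.5-fold, limma-trend, quality weights, the pooled groups and the set without choroid-rich libraries were chosen after seeing the data. Over all genes, 967 were called in MRL/lpr and 556 in MRL/lpr+MSC, against 104 and 100 in the test against 1.5-fold, 2065 and 1177 with quality weights, 1333 and 280 with the replicate block, and 165 to 1695 and 193 to 1514 when 1 library was left out. Of 150 and 140 single-gene values under alternatives against MRL/mpj, 0 changed sign. Between the MRL/lpr groups, 0 genes were called under all 15 alternatives and 20 of 150 values changed sign. *Nr3c2* went to 0.001388 with median-of-ratios size factors, 0.0006341 with the replicate block, 0.002548 with quality weights and 0.099 without the 2 choroid-rich libraries. Quality weights moved *Ddit4* to 0.20 and *Mt1* to 0.025. Without the choroid-rich libraries *Nr3c1* was -0.053, *Fkbp5* 0.085 and *Tsc22d3* -0.015. Leaving out 1 library gave -0.15 to 0.16 for *Nr3c2*, -0.22 to 0.033 for *Fkbp5*, -0.017 to 0.29 for *Tsc22d3*, -0.17 to 0.23 for *Ddit4*, -0.32 to 0.004676 for *Pdk4* and -0.15 to 0.10 for *Mt1*.

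The labels do not tie mice together by replicate number. Deviations of same-numbered libraries correlated at -0.015, 0.13 and 0.043 for MRL/lpr with MRL/mpj, at -0.081, 0.12 and 0.19 for MRL/lpr+MSC with MRL/mpj and at -0.23, 0.27 and 0.42 between the MRL/lpr groups, so the numbers were not taken to pair the samples. With the replicate block the number called was 3, 2 and 0: in MRL/lpr+MSC the adjusted p went to 0.0761 for *Zbtb16* and 0.0798 for *Mt2* at nearly the same fold changes, and in MRL/lpr it went to 0.0414 for *Mt2*. The planned quasi-likelihood, glmTreat and DESeq2 fits were not run. With 3 libraries a group, precision is limited by the number of libraries: all 10 genes stood far above the 3-count floor.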

Other observations

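Across the 9 libraries, the 3 genes whose log2 CPM followed *Fkbp5* most closely, of 14942 compared, were *Ppp1r13b* (Pearson r = 0.98), *Ppp1cb* (r = 0.97) and *Zfand5* (r = 0.97). *Ppp1r13b*, which encodes the p53-binding protein ASPP1, was at 138.5 to 148.0 CPM in MRL/mpj, 96.8 to 126.4 CPM in MRL/lpr and 98.2 to 119.9 CPM in MRL/lpr+MSC. The points share their group, their libraries and their scaling, so these values are a description. Among the other 9 genes, r with *Fkbp5* was highest for *Zbtb16* (0.88) and *Nr3c2* (0.86), was 0.37 to 0.72 for *Mt1*, *Ddit4*, *Pdk4*, *Mt2*, *Sgk1* and *Tsc22d3*, and was negative for *Nr3c1* (-0.85). MRL/lpr replicate 2 had the highest *Fkbp5* and *Nr3c2* and the lowest *Nr3c1* of the libraries with the lpr allele.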
